A study of Rattus norvegicus with 12 samples.

Results

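The comparison set 3 libraries of soft gel cultures at passage 6 against 3 libraries of soft gel cultures at passage 3, which are 6 of the 12 libraries of the series. The libraries were taken by their labels for substrate and passage. All cells were fibroblasts from the ventricles of adult wild-type rats, grown with 20% fetal bovine serum. The later cultures were at passage 6 and the earlier ones at passage 3, a passage being 1 round of detaching and replating the cells, and in both groups the cells were moved onto the soft surface for 48 h. That surface was a flat poly(ethylene glycol) norbornene hydrogel, a synthetic, water-swollen polymer network. The other 6 libraries, from cells kept on tissue culture polystyrene at passage 6 and at passage 3, serve below as the nearest comparison. The labels speak of biological replicates and do not say whether these were separate animals or separate cultures, so the p-values speak for the spread from library to library and no more. The treatment text describes a transfer to the gel for a fixed time, and the surface on which the soft gel cells had grown in earlier passages is not given in the sources used here.

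Cardiac fibroblasts build and maintain the collagen-rich matrix of the heart. On stiff surfaces such as culture plastic they tend to become myofibroblasts, contractile cells that lay down matrix, and soft surfaces are known to restrain this activation. Repeated passaging of primary cells is known to lead towards senescence, a lasting arrest of division accompanied by the secretion of inflammatory proteins. By its title the series concerns the effect of surface stiffness on these states, and the passage comparison on soft gel shows how later cultures differed from earlier ones once both had been on the soft surface.

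Polyadenylated RNA was sequenced, and the authors' table lists raw counts of 32623 rat genes by Ensembl identifier. The files and the reference tables do not pair these identifiers with gene names. Genes are therefore given by identifier only, no role is attached to any of them, and neither the fibroblast identity of the cultures nor any gene group was checked against markers. Depth was 57061019 to 71464905 counts at passage 6 and 57634698 to 58750450 at passage 3. Gene levels are in CPM, a gene's counts relative to a common library total after TMM scaling. The 10 most abundant genes held 9.61% to 10.98% of the counts at passage 6 and 11.1% to 11.2% at passage 3.

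The passage 6 libraries resembled each other less than the passage 3 libraries did. Spearman's correlation across genes ran from 0.968 to 0.982 within passage 6 and from 0.989 to 0.994 within passage 3, genes not being independent replicates. The common biological coefficient of variation, the spread between libraries beyond counting error, was 38.6% at passage 6 and 19.2% at passage 3. The median gene had a standard deviation of log2 CPM (0.5 CPM added) of 0.187 at passage 6 and 0.154 at passage 3, and 61.8% of 14083 genes had the larger value at passage 6. Without library 3 of passage 6 the coefficient at passage 6 was 28.9%, while without library 1 or 2 it was 45.3% or 42.2%.

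**Figure D1:**
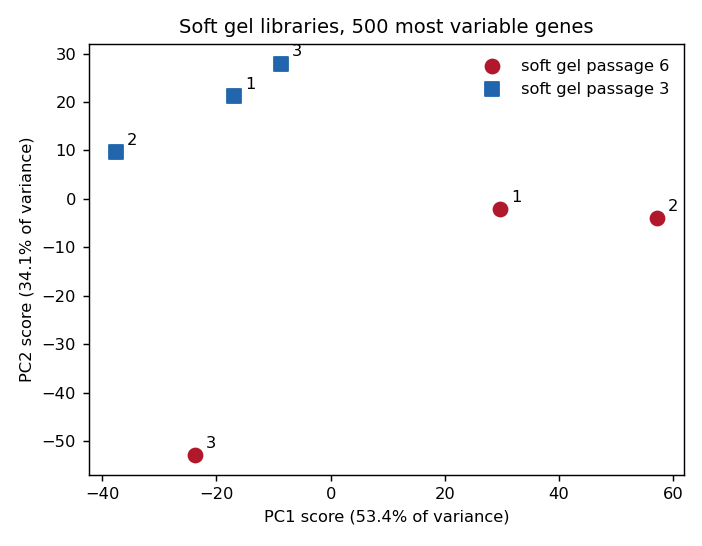
Scores of the 6 soft gel libraries on the first and second principal components of log2 CPM over the 500 most variable genes, with red circles for passage 6, blue squares for passage 3 and the replicate number beside each point. Passage 6 library 3 lies at -52.9 on the second component and, at -23.7 on the first, among the passage 3 libraries.

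The first principal component of the soft gel libraries held 53.4% of the variance of the 500 most variable genes and the second 34.1%. Passage 6 libraries 1 and 2 had scores of 29.7 and 57.2 on the first component, while library 3 of passage 6 had -23.7, inside the range of -37.6 to -8.68 of the passage 3 libraries. On the second component library 3 of passage 6 stood at -52.9, libraries 1 and 2 at -2.14 and -3.89, and the passage 3 libraries between 9.71 and 27.9. Library 3 of passage 6 thus stood apart from both groups.

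Across 14083 genes past the filter on low counts, 545 rose and 500 fell at passage 6 on soft gel (edgeR quasi-likelihood test, Benjamini-Hochberg adjusted p under 0.05). For each gene the test takes the same spread at both passages, although the common coefficient was 38.6% at passage 6 and 19.2% at passage 3. These 1045 genes are 7.42% of those tested, 3.87% higher and 3.55% lower. The levels of all 3 passage 6 libraries lay beyond those of all 3 passage 3 libraries in each of the 1045, as they did in 4496 genes, or 31.9% of those tested. An unadjusted p under 0.05 was found for 3588 genes. Over all genes the median log2 fold change was 0.01, with quartiles of -0.23 and 0.25. As the RNA is from bulk cultures, more cells of a type and more RNA per cell cannot be told apart in any of these differences. Nor can passage be told apart from whatever else set the cultures of the passages apart, since no label or shared variation ties a passage 6 library to a passage 3 library.

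The genes that rose had a median log2 fold change of 1.12 (quartiles 0.69 and 1.98), and those that fell a median of -0.95 (quartiles -1.64 and -0.66). A change of at least 2-fold was estimated for 307 of the 545 that rose and 239 of the 500 that fell, and one of at least 16-fold for 44 and 22. Calls grew more frequent with the level of the gene, at 10.4% of 2817 genes above 72.4 CPM and 3.41% of 2817 genes below 2.18 CPM, the top and bottom of 5 bins of equal size. The called genes of the bottom bin had a median change of 3.49 on the log2 scale, in either direction, and those of the top bin 0.80. The genes that rose had a median level of 35.4 CPM at passage 6 and 16.1 CPM at passage 3, and the genes that fell 24.3 CPM at passage 6 and 45.6 CPM at passage 3.

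**Figure D2:**
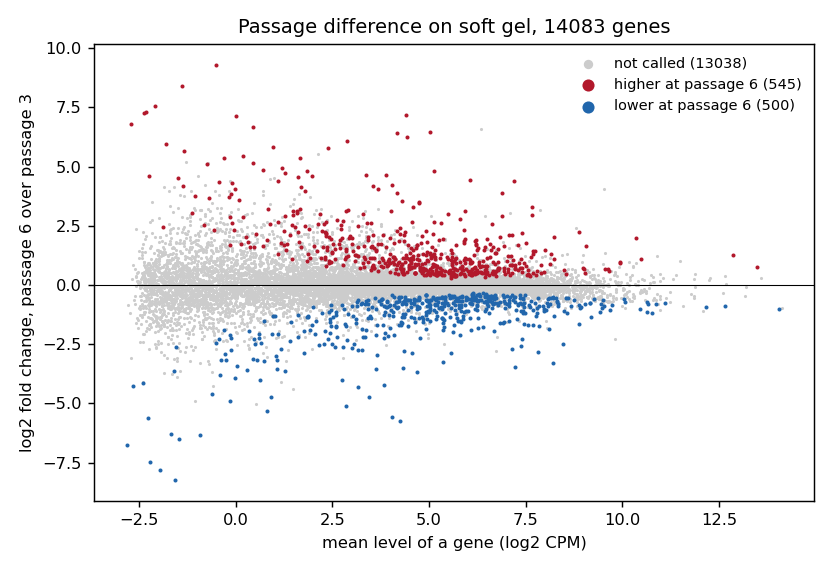
Each point is a gene, placed by its mean level on soft gel (log2 CPM, horizontal) and its log2 fold change of passage 6 over passage 3 (vertical), in red where it was called higher, blue where called lower and grey otherwise. Large changes at low levels are often grey, while among abundant genes called changes are mostly small.

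A complete switch between passages was rare. A single gene had at least 1 CPM in each passage 6 library and under 0.1 CPM in each passage 3 library, with a mean of 3.59 CPM at passage 6, and no gene showed the reverse. The same criterion on plastic found 3 genes and 0 genes. Each passage 6 library was also set against the range of the passage 3 libraries, with 0.5 CPM added to every level. Library 2 was at least 4-fold above that range in 219 genes, library 3 in 89 and library 1 in 71. They were at least 4-fold below it in 88, 74 and 46 genes in the same order of libraries. All 3 passage 6 libraries were above by that much in 23 genes and below in 17, whereas 218 genes were above in 1 library and in neither of the others, and 83 below.

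The largest increases belonged to ENSRNOG00000002548 and ENSRNOG00000016945, and the largest decreases to ENSRNOG00000019120 and ENSRNOG00000015093, among called genes whose group means reached 5 CPM in at least 1 group. ENSRNOG00000002548 had 9.52, 92.6 and 18.8 CPM in passage 6 libraries 1, 2 and 3, against 0.215, 0.154 and 0.438 CPM at passage 3. The passage 6 libraries differed widely from each other, and the lowest of them was still far above all passage 3 libraries. Passage 6 exceeded passage 3 by 7.18 ± 1.09 on the log2 scale (SE, edgeR adjusted p = 0.0149). The level of ENSRNOG00000016945 was 37.0, 128 and 20.8 CPM at passage 6, against 0.248, 0.529 and 1.28 CPM at passage 3, or 6.46 ± 0.93 higher on the log2 scale (edgeR adjusted p = 0.0131). In both genes library 2 was the highest of passage 6.

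ENSRNOG00000019120 had 0.293, 0.605 and 1.06 CPM at passage 6, against 54.8, 24.3 and 25.2 CPM at passage 3. The groups were far apart in every library, with -5.74 ± 0.56 as the log2 fold change (edgeR adjusted p = 0.00579). ENSRNOG00000015093 had 1.42, 0.218 and 0.315 CPM at passage 6, against 38.3, 13.4 and 38.1 CPM at passage 3, which gave -5.56 ± 0.81 on the log2 scale (edgeR adjusted p = 0.0135). ENSRNOG00000019120 was called under all 12 alternatives run, with adjusted p between 1.2e-34 and 0.0433. ENSRNOG00000002548 and ENSRNOG00000016945 missed the threshold when any 1 passage 3 library was left out, at edgeR adjusted p of 0.0878, 0.0722 and 0.0747 for the first gene and 0.0737, 0.0671 and 0.0585 for the second without library 1, 2 or 3. ENSRNOG00000015093 missed it without library 1 or 3 of passage 3, at 0.0722 and 0.0684. With limma-voom and a weight shared by the libraries of each passage, these genes were at adjusted p of 0.128, 0.0588 and 0.0824 in the same order. Their directions held throughout, with log2 fold changes of 5.67 to 7.74, 5.36 to 7.30 and -6.82 to -5.17 when 1 library was left out. The genes were picked without overlap between the passages, so leaving out a library could hardly reverse them.

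On plastic each of these genes changed in the same direction. The plastic libraries did not enter the choice of the genes. They appear to vary together with the soft gel libraries of the same passage and number, and are not taken as independent support. ENSRNOG00000002548 averaged 15.6 ± 10.4 CPM at passage 6 and 0.218 ± 0.168 CPM at passage 3 there (SD, n = 3 each), or 6.13 ± 0.88 on the log2 scale (SE, edgeR adjusted p = 0.0138). The log2 fold change on plastic was 8.98 ± 0.65 for ENSRNOG00000016945 (edgeR adjusted p = 0.00272), -3.84 ± 0.82 for ENSRNOG00000019120 (edgeR adjusted p = 0.0351) and -4.41 ± 0.84 for ENSRNOG00000015093 (edgeR adjusted p = 0.0260). At passage 3 the level of ENSRNOG00000019120 was 34.8 ± 17.3 CPM on soft gel and 15.1 ± 8.31 CPM on plastic.

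**Figure D3:**
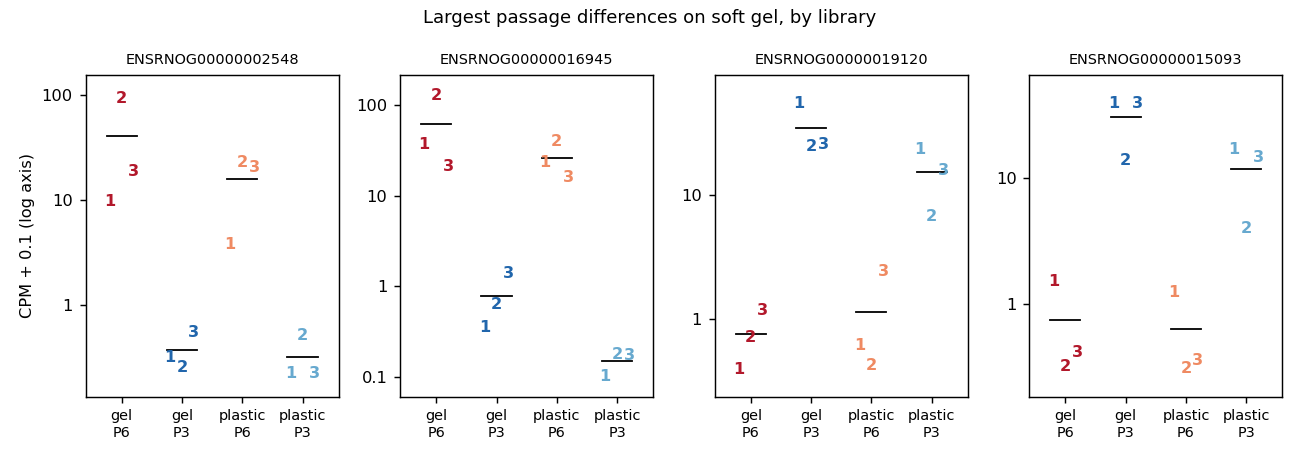
CPM plus 0.1 on a log axis for the 4 genes, with numerals marking libraries 1, 2 and 3 of each group (soft gel passage 6, soft gel passage 3, plastic passage 6, plastic passage 3) and bars the group means. In every panel the passage 6 and passage 3 numerals of a substrate are separate, as for ENSRNOG00000019120 with at most 1.06 CPM at passage 6 and at least 24.3 CPM at passage 3 on soft gel.

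The number of called genes moved widely with the library left out, in fits that have fewer samples. It was 988, 617 and 1403 without library 1, 2 or 3 of passage 6, and 114, 343 and 129 without library 1, 2 or 3 of passage 3, so leaving out a passage 3 library removed more calls than leaving out any passage 6 library. Without library 2 of passage 3 there were 138 higher and 205 lower genes. No gene called with all 6 libraries was called in the opposite direction in any of these fits. As none of the 1045 overlapped between the passages, leaving out a library could hardly reverse a direction, so this is no sign of stability. Called in the same direction with all 6 libraries and in all 6 fits were 89 genes, or 8.52% of the 1045, of which 39 were higher and 50 lower. Of these, 87 also passed under every other alternative run, 38 higher and 49 lower.

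**Figure D4:**
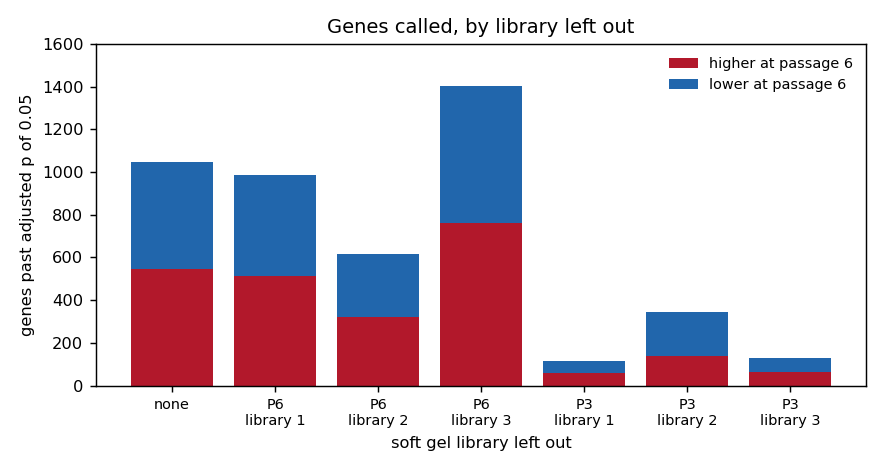
Number of genes past the adjusted p of 0.05 with all 6 soft gel libraries and with each one left out in turn, stacked as higher (red) and lower (blue) at passage 6. The bars for a missing passage 3 library reach 114 to 343 genes, and those for a missing passage 6 library 617 to 1403.

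The 38 higher genes of this stable set had a median level of 46.5 CPM at passage 6 and 14.2 CPM at passage 3, with a median log2 fold change of 1.80. The 49 lower ones had 20.8 CPM at passage 6 and 58.4 CPM at passage 3, with a median of -1.72. A 2-fold change or more was estimated for 35 of the 38 and 44 of the 49. The smallest change in the set was 0.77 on the log2 scale. On plastic the estimates had the same sign in 38 of 38 and 49 of 49 genes, and 29 and 40 of them passed there too, where 9.84% of all genes tested were called. Plastic and soft gel libraries of the same passage and number appear to vary together, so this is not taken as independent support. The share of equal signs over all genes was not counted.

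Library 3 of passage 6 had low levels of a set of genes that the other passage 6 libraries held at higher levels. It was at least 4-fold below both of them in 174 genes and at least 4-fold above both in 10, with 0.5 CPM added. For libraries 1 and 2 of passage 6 the counts were 13 and 10 genes below and 19 and 44 above, and for each passage 3 library at most 4 below and 2 above. Over the 174 genes the median level was 7.43, 14.6 and 0.378 CPM in passage 6 libraries 1, 2 and 3, against 2.66, 1.07 and 4.06 CPM in passage 3 libraries 1, 2 and 3. In 134 of the 174 both other passage 6 libraries were above the whole passage 3 range while library 3 was below it. These genes were picked for their gap within passage 6, so these values describe them and carry no test. Such a gap widens the spread that the passage test uses, so a low count of calls follows from the choice. Of the 174, 1 was called between passages, against 7.42% of all genes tested.

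The plastic library with the same passage and number was the lowest of the plastic passage 6 libraries in 169 of the 174 genes. The share over all genes was not counted. This plastic library was at least 4-fold below both others of plastic passage 6 in 102 genes, against 17 and 10 genes for plastic libraries 1 and 2. Common to the soft gel and plastic lists were 79 genes, which is 45.4% of the 174 on soft gel and 77.5% of the 102 on plastic. Over the 174 genes the median level of plastic library 3 of passage 6 was 0.247 CPM, against 3.29 and 6.49 CPM in plastic libraries 1 and 2 of passage 6.

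Without library 3 of passage 6, 1403 genes were called, 760 higher and 643 lower, and 783 of them by at least 2-fold. Of the 1045 genes, 871 were called again and the rest, also 174 in number, were not, while 532 genes were called that had not been. For the genes called with all 6 libraries, library 3 lay about as far from passage 3 as libraries 1 and 2 did. The 545 genes that rose had a median log2 ratio to the mean of the passage 3 libraries of 0.97, 1.10 and 1.03 in passage 6 libraries 1, 2 and 3, and the 500 that fell one of -0.88, -0.91 and -0.92. These ratios come from the libraries that made the calls and are given as a description.

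The passage difference on soft gel was set beside that on plastic, which was fitted in the same way on its own 6 libraries. On plastic 826 genes were higher and 556 lower at passage 6 out of 14048 tested, or 9.84%. Higher on both substrates were 300 genes, 55.0% of the soft gel list and 36.3% of the plastic list. Lower on both were 233 genes, 46.6% of the soft gel list and 41.9% of the plastic list, and 1 gene was called in opposite directions. The comparisons share no library, but soft gel and plastic libraries of the same passage and number appear to vary together, so they are not taken as independent.

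Most genes called on one surface had an estimate of the same sign on the other. This held on plastic for 519 of 533 genes that rose on soft gel and 478 of 493 that fell, counting those tested on both. The share of equal signs over all genes tested on both was not counted. The genes that rose on soft gel had a median log2 fold change of 1.12 there and 0.88 on plastic, and those that fell had -0.95 on soft gel and -0.74 on plastic. The soft gel medians cover all 545 and 500 called genes, the plastic medians the 533 and 493 also tested there. The lists chosen on plastic leaned the other way, with medians of 0.59 on soft gel and 0.88 on plastic for the higher genes. For the lower genes the medians were -0.66 on soft gel and -0.82 on plastic. Of these lists, 815 of 826 higher and 546 of 556 lower genes were tested on soft gel. Each list was thus larger in size on the substrate it was chosen on.

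Whether the passage difference itself depended on the substrate was tested over all 12 libraries. Taking the libraries as independent, edgeR called 0 of 14660 genes, while 1044 had an unadjusted p under 0.05, and DESeq2 called 103. With a block for each pair of soft gel and plastic libraries of the same passage and number, edgeR called 314 genes, or 2.14%, with the change more positive on soft gel in 118 and more negative in 196. The pairs were inferred from the same counts and are not given by the labels. The passage estimates of the 2 substrates had opposite signs in 143 of the 314 genes. Where the signs agreed, the change was larger on soft gel in 83 genes and larger on plastic in 86. On soft gel 58 of the 314 were called higher and 50 called lower at passage 6, against 3.87% and 3.55% of all genes tested. The contrast that picked the 314 contains the soft gel passage change, so these counts describe them and carry no test. The count with pairs was 459, 476 and 145 when pair 1, 2 or 3 of passage 6 was left out, and 34, 43 and 33 when that of passage 3 was.

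Of the genes whose passage change was more positive on soft gel, ENSRNOG00000013484 had the smallest p. It had 185, 88.2 and 259 CPM on soft gel at passage 6, against 53.1, 61.7 and 54.3 CPM on soft gel at passage 3. On plastic it had 38.8, 18.5 and 47.3 CPM at passage 6 and 31.5, 39.9 and 30.3 CPM at passage 3. The soft gel groups did not overlap and the plastic groups did. Its log2 fold change was 1.63 ± 0.35 on soft gel (edgeR adjusted p = 0.0402) and 0.04 ± 0.32 on plastic (edgeR adjusted p = 0.945), and the difference with pairs was 1.58 ± 0.11 (edgeR adjusted p = 0.00145). The call on soft gel was lost without library 1 of passage 6 (edgeR adjusted p = 0.0711) and without library 1, 2 or 3 of passage 3 (0.157, 0.114 and 0.142), with a log2 fold change between 1.25 and 1.95 whichever library was left out.

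For ENSRNOG00000021735 the difference of 2.35 ± 0.24 (edgeR with pairs, adjusted p = 0.00374) came with a fall on plastic. It had 14.4, 22.4 and 43.5 CPM on soft gel at passage 6, against 34.3, 33.5 and 22.9 CPM at passage 3, and these values overlapped. On plastic it had 1.36, 1.91 and 2.04 CPM at passage 6, against 11.6, 11.6 and 9.34 CPM at passage 3. The passage log2 fold change was -0.20 ± 0.38 on soft gel (edgeR adjusted p = 0.792) and -2.62 ± 0.22 on plastic (edgeR adjusted p = 0.00416). The soft gel value rested on single libraries and was not called in any fit, at -0.74 without library 3 of passage 6 (edgeR adjusted p = 0.102) and 0.10 without library 1 of passage 6.

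The 2 genes with the smallest p among those more negative on soft gel had opposite estimates on the 2 substrates. ENSRNOG00000001469 had 124, 167 and 588 CPM on soft gel at passage 6, against 1883, 844 and 1481 CPM at passage 3. On plastic it had 1188, 3285 and 10178 CPM at passage 6, against 2438, 578 and 1458 CPM at passage 3. Its log2 fold change was -2.29 ± 0.63 on soft gel (edgeR adjusted p = 0.0729) and 1.71 ± 0.82 on plastic (edgeR adjusted p = 0.223), so neither passed alone, while the difference with pairs was -3.96 ± 0.30 (edgeR adjusted p = 0.00188). ENSRNOG00000025184 had 37.0, 44.3 and 79.0 CPM on soft gel at passage 6, against 102, 113 and 87.2 CPM at passage 3, or -0.94 ± 0.27 on the log2 scale (edgeR adjusted p = 0.0831). On plastic it averaged 262 ± 81.9 CPM at passage 6 and 122 ± 26.1 CPM at passage 3 (SD, n = 3 each). Its log2 fold change there was 1.11 ± 0.25 (SE, edgeR adjusted p = 0.0391), so it passed on plastic and not on soft gel. The difference with pairs was -2.07 ± 0.17 (edgeR adjusted p = 0.00188). Without library 3 of passage 6 both were called lower on soft gel, ENSRNOG00000001469 by -3.29 on that scale (edgeR adjusted p = 0.00613) and ENSRNOG00000025184 by -1.34 (edgeR adjusted p = 0.00599). All of these differences also passed with any 1 pair left out. The genes were picked by the smallest p in the same fit, so this is no independent support. None passed in edgeR without pairs, where the adjusted p was 0.516, 0.261, 0.448 and 0.269 for ENSRNOG00000013484, ENSRNOG00000021735, ENSRNOG00000001469 and ENSRNOG00000025184.

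**Figure D5:**
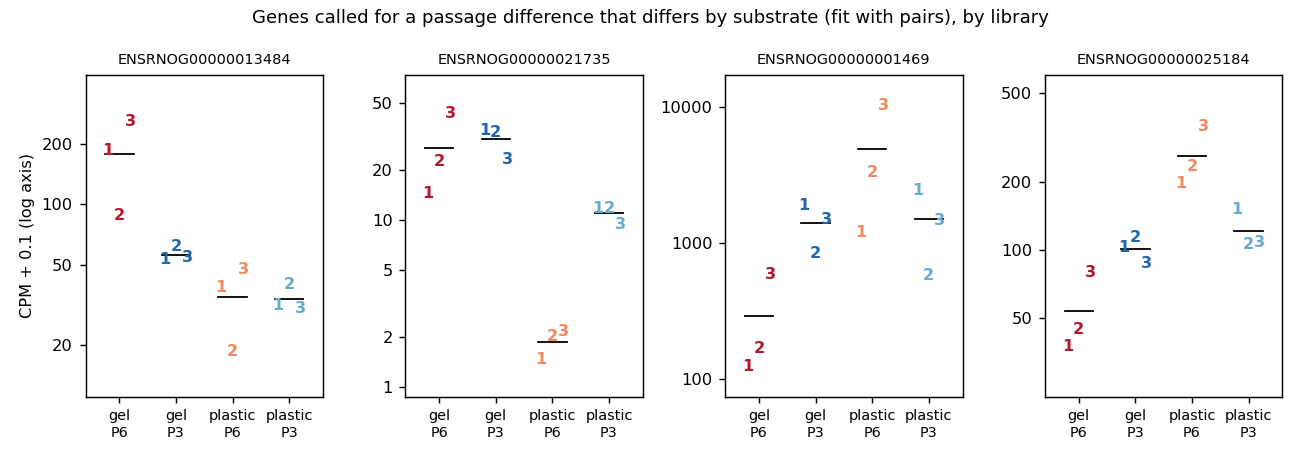
CPM plus 0.1 on a log axis for the 4 genes, drawn as in the plot of the largest passage differences, with numerals for libraries 1, 2 and 3 and bars for group means. ENSRNOG00000013484 separates the passages on soft gel (88.2 to 259 CPM against 53.1 to 61.7 CPM) and overlaps on plastic.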

How the data were processed

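Paired reads of 150 bases came from selected mRNA, per the labels' protocols. The authors deposited 1 table of raw counts per Ensembl rat gene, not normalized; per the submitters' processing notes, the build was Rnor_6.0 and the tools include HISAT2 2.1.0, Cuffnorm 2.2.1, Cufflinks and FastQC 0.11.5. How reads were counted, by strand or not, and with which annotation is not given in the sources used here, so overlapping genes and near-identical copies may share reads. Every row carried a gene identifier.

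Depth over the 12 libraries was 47834926 to 71464905 counts. Reads carried no molecular identifiers. Chi-square statistics per degree of freedom between soft gel replicates were 30.9 to 266 (genes with at least 20 counts), so no library was treated as a duplicate.

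Genes were filtered with filterByExpr (minimum count 10, minimum total 15), scaled by TMM and tested with edgeR 4.0.16 (R 4.3.3) on the 6 soft gel libraries. The 12-library model was kept for the difference between substrates, since pairs of libraries appear to vary together. DESeq2 1.42.0 and limma 3.58.1 served as alternatives, beside other scaling, no filter, all libraries in the fit, a replicate block and each library left out. CPM use TMM sizes over all 12 libraries. Standard errors were derived from the fold change and F. Plots used Python 3.11.15 and matplotlib 3.10.9. Fits were tested on simulated counts with the same spread per gene at both passages and no shared variation within pairs. The fit with pairs was therefore not tested on paired data.

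Same-numbered libraries deviated together between soft gel and plastic (r = 0.505, 0.555 and 0.717 at passage 6, and 0.230, 0.414 and 0.434 at passage 3), and were paired on this basis. The pairing comes from the data, not the labels, and libraries of different numbers were not correlated across the substrates for contrast. It is least clear at passage 3, where the lowest r, 0.230, was smaller in size than -0.239 and -0.291 between the passages on soft gel.

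Named genes were the 2 per direction with the largest change past the threshold, without overlap and with a group mean of 5 CPM or more, and the 2 per direction with the smallest p for the difference with pairs. Gene lists were written but could not be matched to identifiers. The comparison, lists and tests were chosen with earlier results of these data known.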

Additional observations from a re-analysis of the deposited data

Results flagged for a closer look

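For 4 genes the passage change differed between soft gel and plastic by a test of the difference itself, in the edgeR fit with a block for each pair of libraries. The pairs were inferred from the same counts and are not given by the labels. The 4 were picked by smallest p among the 314 genes called in that fit, so their p-values are no independent support. The difference in log2 fold change, soft gel minus plastic, was 1.58 for ENSRNOG00000013484, 2.35 for ENSRNOG00000021735, -3.96 for ENSRNOG00000001469 and -2.07 for ENSRNOG00000025184, with adjusted p of 0.00145, 0.00374, 0.00188 and 0.00188 in that order. Each is the difference of log2 fold changes of passage 6 over passage 3. Without the block edgeR called 0 of 14660 genes, and so none of the 4. DESeq2 without the block called ENSRNOG00000021735 (adjusted p = 0.000387) and ENSRNOG00000025184 (adjusted p = 0.000253).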

How the results depend on the processing

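The 1045 genes called on soft gel became 2362 with DESeq2 and 1797 with all 12 libraries in the fit, and 1032 and 973 of the 1045 were among them in the same direction. DESeq2's size factors in edgeR, limma-voom with a weight per passage group and no low-count filter gave 1070, 1054 and 1085. The weights were shared by the libraries of a passage, so no single library was weighed down. Leave-one-out fits gave 114 to 1403; they have fewer samples. Replicate numbers did not pair the passages (r = -0.0210, -0.239 and -0.291 on soft gel), and a replicate block gave 243 genes, without ENSRNOG00000002548 and ENSRNOG00000016945 (adjusted p = 0.0541 and 0.0608). The share of higher genes moved by under 10 percentage points under either scaling. The difference between substrates, at 0 genes without pairs, became 314 with the replicate block, 103 with DESeq2, 1 with no low-count filter, 0 to 9 without 1 library, and, with the block and without pair 1, 2 or 3, 459, 476 and 145 at passage 6 and 34, 43 and 33 at passage 3, an alternative chosen after seeing the data. The cause was not tested. None of the 4 largest passage changes or the 4 differences between substrates changed sign under any alternative run. The former were picked without overlap between the passages and the latter by smallest p, so the constant signs are no independent support. Tests over gene lists were not run, since identifiers had no names. Of genes below 2.18 CPM 3.41% were called, and the part of depth in this was not tested.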
